A study of Mus musculus with 3 samples.

Results

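The regions described here are stretches of the mouse genome that ranked high for 5-methylcytosine (5mC) and for 5-hydroxymethylcytosine (5hmC) in wild-type mouse embryonic stem cells. A region is a run of 3 to 7 array probes with consecutive probe numbers, and each run was given the median value of its probes on every array. A run was chosen when its median lay above percentile 80 of all runs of 3 to 7 probes on each of 3 arrays. This rule chose 614 of 12797 runs, or 4.80%, and these hold 2691 of the 88734 probes measured on every array. The measured values themselves chose the runs, so their height is a description of the choice.

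Each array compared precipitated DNA, labelled with Cy5, with genomic DNA of the same kind of cells, labelled with Cy3. On the 5mC MBD array the precipitated DNA was enriched for methylated cytosine with an MBD reagent, a methyl-CpG-binding domain. On the 5hmC ESC array and on the 5hmC ESC (IVT) array it was immunoprecipitated for 5hmC. The labels do not explain IVT, and the array that bears the word is called the IVT array below. All 3 arrays held DNA of wild-type embryonic stem cells with no treatment named, and the sources used here do not name the ES cell line, its passage or its culture medium. There was 1 array of each kind, so replicate error is unknown and no p-value was computed. Differences between arrays, and between the chosen runs and others, are therefore differences within these 3 hybridisations.

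In mammalian DNA most 5mC lies in CpG dinucleotides, where DNA methyltransferases place it and maintain it through cell division. TET dioxygenases oxidise 5mC to 5hmC, so 5hmC arises where 5mC was present before, and embryonic stem cells express Tet1 and Tet2 and are known for a high level of 5hmC. MBD domains bind methylated CpGs best where these are dense and bind 5hmC weakly or not at all, while precipitation with an antibody against 5hmC does not depend on 5mC.

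The deposited values are signed numbers of the kind a log ratio gives, and a high value is taken to mean that precipitated DNA outweighed genomic DNA, which is likely from the channel order but not stated. The sources used here give neither the base of the logarithm nor the centring or normalization, so values are printed in deposited units, levels are not compared between arrays, and ranks carry the comparisons. Signal intensities were not used here, and the depth behind a value is unknown. All 3 ratios share genomic DNA of embryonic stem cells as the denominator, and no array held DNA without these modifications. The part of that shared denominator, of base composition and of any bias common to the precipitations in the results below was not tested. The files name probes by number only, so no run is given a gene, a chromosome position or a sequence.

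On the 5mC MBD array the 614 chosen runs had medians from 0.83 to 2.91 with a middle value of 1.29, against a middle value of 0.22 in the other 12183 runs. On the 5hmC ESC array they ran from 0.94 to 3.25 with a middle value of 1.52, against -0.04 in the other runs. On the IVT array they ran from 0.16 to 2.16 with a middle value of 0.53, against -0.51 in the other runs. The lower end of each range is set by the threshold. The upper ends of the other runs were higher than those of the chosen runs on every array, at 4.79 for 5mC, 4.97 for 5hmC and 2.85 on the IVT array. The runs with the single highest value of an array thus lay outside the chosen runs on all 3 arrays.

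**Figure D1:**
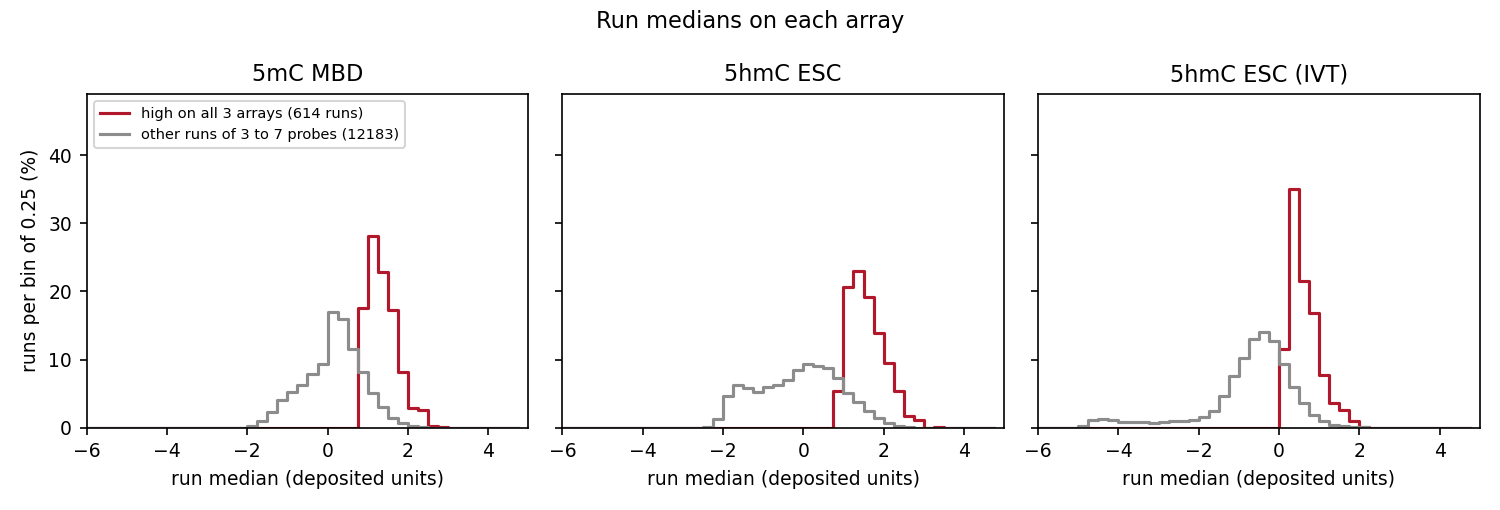
Share of runs (y axis, percent per bin of 0.25) by run median (x axis, deposited units) on each array, for the 614 runs high on all 3 arrays (red) and the 12183 other runs of 3 to 7 probes (grey). The red runs start at the threshold, near 0.83 for 5mC, 0.94 for 5hmC and 0.16 on the IVT array, and grey runs above each threshold are high there but not on all 3 arrays.

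Runs near the threshold differed little in value. On the 5mC MBD array the lowest chosen run had 0.8284 at percentile 80.01, and the nearest run outside that passed on the other arrays had 0.8259 at percentile 79.93. On the 5hmC ESC array the pair was 0.9381 inside, at percentile 80.05, and 0.936 outside, at percentile 79.96. On the IVT array it was 0.1608 inside, at percentile 80.08, and 0.1585 outside, at percentile 79.99. These gaps were far smaller than the SD over the probes of a run. Membership of runs near the line is therefore not resolved by these arrays.

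The chosen runs had median percentiles of 92.9 for 5mC, 92.8 for 5hmC and 91.1 on the IVT array. The lowest of the 3 percentiles of a run lies nearer the threshold by construction. Taking each run by its lowest percentile over the 3 arrays, the middle value was 85.9, and 264 of the 614 runs had a lowest percentile of at most 85. The lowest percentile exceeded 90 in 169 runs and 95 in 44 runs. The weakest array of a run was most often the IVT array, which gave the lowest percentile in 263 runs (42.8%). The 5mC MBD array gave it in 183 runs (29.8%) and the 5hmC ESC array in 168 runs (27.4%). The highest and lowest percentile of a run lay 8.85 points apart at the median and between 0.23 and 19.3 points over all chosen runs, where the rule allows 20 at most.

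Among the chosen runs the height on one array said little about the height on another. Over the 614 runs Pearson's r between 5mC and 5hmC medians was 0.28 and Spearman's rho was 0.27. Between 5mC and the IVT array r was 0.09 and rho 0.08, and between the 5hmC arrays r was 0.14 and rho 0.15. Over all 12797 runs r was 0.77, 0.54 and 0.64 for the same pairs. These are correlations across regions of the same 3 hybridisations with a shared denominator, and the choice of high runs narrows the range of each array, which by itself lowers them.

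The chosen run with the highest 5mC, 3 probes with a median of 2.91 ± 1.08 (SD over probes), was at percentile 99.8 for 5hmC and 94.5 on the IVT array. The one with the highest 5hmC, 3 probes at 3.25 ± 0.93, was at percentile 99.5 for 5mC but at 84.0 on the IVT array. The one highest on the IVT array, 3 probes at 2.16 ± 1.14, was at percentile 98.75 for 5mC but at 82.5 on the 5hmC ESC array. Each of these runs was thus near the top on a pair of arrays and lower on the remaining one.

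Ranked by the lowest of the 3 percentiles, the first run was that of 3 probes from A_68_P22342938, at percentile 99.6 for 5mC, 99.5 for 5hmC and 99.8 on the IVT array. Its probes had 0.08, 2.20 and 2.15 for 5mC, 1.43, 2.57 and 2.39 for 5hmC, and -1.53, 1.95 and 1.73 on the IVT array. The first probe was the lowest of the run on every array, and on the 5mC and IVT arrays it lay in the lower part of all probes, at percentiles 39.5 and 17.8. The median of a run of 3 is set by the middle value, so this run ranked first although 1 of its 3 probes was not high on 2 of the arrays.

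The second run, 6 probes from A_68_P27779978, stood at percentile 99.5 for 5mC, 99.6 for 5hmC and 99.0 on the IVT array. Its 5mC values were 3.30, 1.59, 2.78, 2.55, 1.37 and 0.23 in probe order. Its 5hmC values were 3.96, 2.28, 3.56, 2.59, 2.31 and 1.71, with every probe above percentile 91 of all probes. Its values on the IVT array were 2.70, -0.49, 1.86, -0.14, 2.58 and 0.74, so that high probes stood beside probes near the middle of that array. On the 5mC and 5hmC arrays the first probe was the highest and the sixth the lowest, and on the IVT array the second was the lowest.

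**Figure D2:**
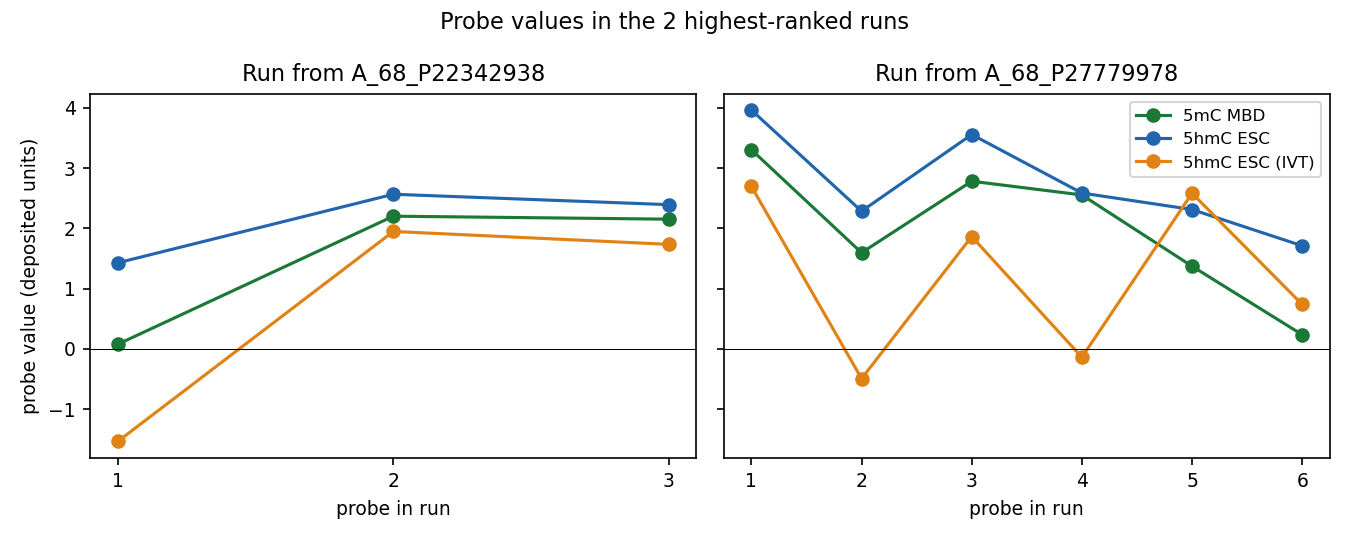
Value of each probe (y axis, deposited units) by its place in the run (x axis) for the 2 runs with the highest lowest percentile, on the 5mC MBD (green), 5hmC ESC (blue) and 5hmC ESC (IVT) (orange) arrays. All 3 arrays are lowest at the first probe of the run of 3, and in the run of 6 the IVT array falls below 0 at probes 2 and 4.

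The 10 runs ranked highest in this way had 5mC medians from 1.60 to 2.37, 5hmC medians from 1.90 to 2.45 and IVT medians from 1.001 to 1.79. Among them were 6 runs of 3 probes, 2 of 4, 1 of 5 and 1 of 6.

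A single probe is called high here when it lies above percentile 80 of all probes on its array. On the 5hmC ESC array 73.3% of the 2691 probes in chosen runs were high, against 16.4% of probes in the other runs and 19.2% over all runs of 3 to 7 probes. For 5mC the share was 58.4%, against 17.6% in the other runs and 19.6% over all. The IVT share was 54.9%, against 17.7% in the other runs and 19.5% over all. These shares follow in part from the rule and are given as a description.

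Every probe of the run was high on the 5hmC ESC array in 176 of the 614 chosen runs (28.7%), against 273 of the 1946 other runs above percentile 80 there (14.0%) and 3.51% of all runs of 3 to 7 probes. For 5mC that held for 45 chosen runs (7.33%), against 3.44% of the 1945 others above percentile 80 and 0.875% of all runs. The IVT count was 32 chosen runs (5.21%), against 4.47% of the 1946 others and 0.930% of all runs. Only 2 of the 12797 runs had every probe high on all 3 arrays. Each run with every probe high on an array was itself above percentile 80 there. These 2 runs were therefore bound to be chosen, and the contrast with all runs follows in part from the rule.

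At least 1 probe lay below the median of all probes on at least 1 array in 472 of the chosen runs (76.9%), against 97.4% of all runs. Such a probe was found on the IVT array in 335 chosen runs (54.6%), against 58.6% of the other runs above percentile 80 there. For 5mC it was found in 306 chosen runs (49.8%), against 55.0% of the others above percentile 80, and for 5hmC in 113 (18.4%), against 28.6%. Runs with a probe below the middle of an array were thus common among runs high on that array, chosen or not.

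Probe by probe, 834 of the 2691 probes (31.0%) were high on all 3 arrays, against 2.75% of probes in the other runs and 4.13% over all runs of 3 to 7 probes. The values of these probes set the medians that chose the runs, so this contrast follows in part from the rule. A further 973 probes (36.2%) were high on exactly 2 arrays, against 10.1% of probes in the other runs. Of these 973 probes, 478 missed on the IVT array, 373 on the 5mC MBD array and 122 on the 5hmC ESC array. The same split for the other runs is not given here. No array showed a high value at 311 probes (11.6%) that nevertheless lay inside a chosen run, against 63.9% of probes in the other runs. These contrasts too follow in part from the rule.

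On every array the probes of a chosen run differed among themselves more than those of all other runs did. Against only the other runs above percentile 80 on the same array, the spread was wider for 5mC but narrower for 5hmC. On the IVT array it was then about the same. The median SD over the probes of a run was 0.87 for 5mC in the chosen runs, against 0.73 in the other runs and 0.78 in the 1945 other runs that were also above percentile 80 on that array. For 5hmC it was 0.64, against 0.51 in the other runs and 0.72 in the 1946 others above percentile 80. The IVT value was 0.96, against 0.71 in the other runs and 0.93 in the 1946 others above percentile 80. The other runs above percentile 80 were not matched for height and lay lower than the chosen runs, with a middle value of 1.52 in chosen runs against 1.32 in the others for 5hmC, 1.29 against 1.12 for 5mC and 0.53 against 0.47 on the IVT array. The comparison with runs high on the same array was added after seeing the data.

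Inside the chosen runs the arrays shared part of the pattern from probe to probe. After the mean of each run was subtracted, the probe deviations on the 5mC MBD and 5hmC ESC arrays correlated at r = 0.38 over 2691 probes, against 0.38 over the 52334 probes of the other runs. Between the 5hmC arrays r was 0.38, against 0.32 in the other runs. Between the 5mC MBD and IVT arrays it was 0.21, against 0.21 in the other runs. These correlations are across probes of shared hybridisations. The values for the pairs with 5mC were about the same as in other runs.

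Values were higher inside the chosen runs than at their ends for 5mC and 5hmC. The 1463 inner probes had a median of 1.38 for 5mC, against 1.20 at the 1228 end probes. For 5hmC the inner probes had 1.58, against 1.42 at the ends. The IVT medians were 0.54 inside, against 0.52 at the ends. In the other runs the inner and end probes had 0.21 and 0.22 for 5mC, -0.02 and -0.13 for 5hmC, and -0.60 and -0.59 on the IVT array. In the 59 chosen runs of 7 probes probe 4 had a median of 1.60 for 5mC and 1.84 for 5hmC, against averages of 1.11 and 1.26 over the medians of the first and seventh probe. The IVT values were 0.63 and 0.59.

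The number of probes per run took no part in the ranking. The chosen runs held 4.38 ± 1.304 probes (SD over runs), against 4.30 ± 1.25 in the other runs. Of runs of 3 probes 4.51% were chosen (95% exact binomial interval 3.92 to 5.17), of runs of 4 probes 4.85% (4.17 to 5.61), of runs of 5 probes 4.63% (3.82 to 5.55), of runs of 6 probes 4.92% (3.88 to 6.15) and of runs of 7 probes 6.15% (4.71 to 7.86). These intervals, like those below, treat runs as independent and cover counting error only. They overlap for all 5 lengths, which does not show that the shares are equal. The share was highest for runs of 7 probes, against 4.80% of all runs. The medians of chosen runs were similar at each length, between 1.22 and 1.35 for 5mC, between 1.47 and 1.56 for 5hmC and between 0.49 and 0.58 on the IVT array.

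The 614 chosen runs can also be counted as a share of the runs high on only 2 arrays. The same 614 runs are counted each time, so these shares restate the overlap that the rule selected. The 20% beside them does not allow for the shared denominator or for the correlation of the arrays over all runs (r = 0.54 to 0.77). When runs were chosen on 2 arrays alone, the remaining array ranked between 44.1% and 64.3% of them high. Of the 955 runs high on the 5mC MBD and IVT arrays, 64.3% (61.2 to 67.3) were also above percentile 80 on the 5hmC ESC array, where 20% of all runs are. Of the 1050 runs high on both 5hmC arrays, 58.5% (55.4 to 61.5) were also high for 5mC, again against 20%. Of the 1391 runs high on the 5mC MBD and 5hmC ESC arrays, 44.1% (41.5 to 46.8) were also high on the IVT array, against 20%. The chosen runs made up 24.0% of the runs high on each single array.

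Runs that missed the remaining array spread over a wide range of ranks on it, and few lay in its lowest part. By the definition of a percentile about 50% of all runs lie below percentile 50 and 20% below percentile 20. That background does not allow for the correlation of the arrays over all runs. The medians of all runs high on a pair, given first below, include the 614 chosen runs, which the rule places above percentile 80. The runs high on 5mC MBD and IVT had a median percentile of 86.5 on the 5hmC ESC array. The 341 that missed there had a median percentile of 69.9. Of these, 38 (11.1%) lay below percentile 50 and none below percentile 20. A count of 0 among all 955 runs allows a share of up to 0.314%, counting error only. The runs high on both 5hmC arrays had a median percentile of 84.9 for 5mC. The 436 that missed there had a median percentile of 62.0. Of these, 103 (23.6%) lay below percentile 50 and 3 below percentile 20. The runs high on 5mC MBD and 5hmC ESC had a median percentile of 77.2 on the IVT array. The 777 that missed there had a median percentile of 61.85. Of these, 227 (29.2%) lay below percentile 50 and 9 below percentile 20.

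**Figure D3:**
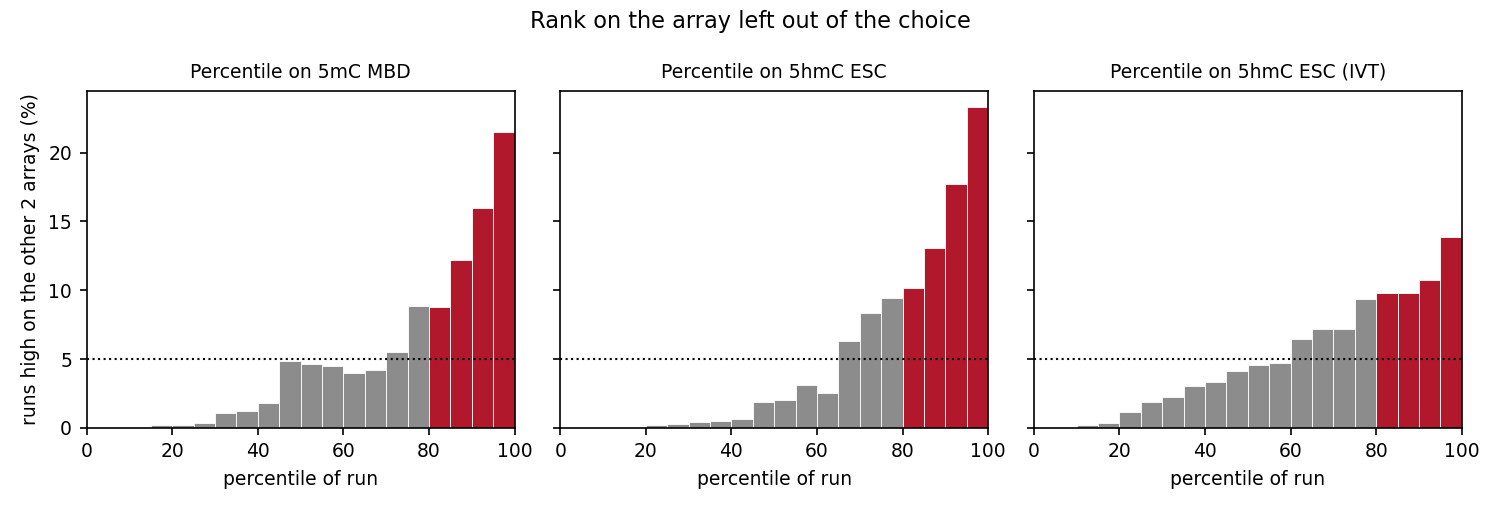
Percentile on 1 array (x axis) of runs chosen as high on the other 2, as percent of those runs per bin of 5 points (y axis), with bins above percentile 80 in red and the 5% of an even spread dotted. The top bin holds 23.4% of runs on the 5hmC ESC array, 21.5% on 5mC MBD and 13.9% on the IVT array.

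Probes just outside a chosen run took no part in choosing that run, though some lie in another chosen run. A probe lay within 10 probe numbers of the end of a chosen run at 513 of 1228 ends (41.8%), against 35.9% of the ends of other runs. Most of these, 392, were 2 numbers away, the smallest gap the definition of a run allows. The nearest outside probe had a median percentile of 79.4 on the 5hmC ESC array, against 55.9 beside the other runs. For 5mC it was 66.5, against 52.2, and on the IVT array 63.7, against 50.1.

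The nearest outside probe was above percentile 80 in 49.3% of cases on the 5hmC ESC array, against 22.8% beside the other runs and 24.3% over all. This 5hmC share was not particular to the chosen runs. It was 50.4% beside runs high on both 5hmC arrays but not for 5mC, and 46.3% beside runs high for 5mC and 5hmC but not on the IVT array. For 5mC this share was 30.8%, against 21.2% beside the other runs and 21.7% over all. Nor was the 5mC share particular to the chosen runs, at 33.7% and 33.2% beside the same sets in that order. Beside runs high on 5mC MBD and IVT but not on the 5hmC ESC array it was 25.7%. The IVT share was 31.8%, against 19.2% beside the other runs and 19.9% over all. Beside the same sets of runs, in the order used for 5mC, the IVT share was 29.4%, 26.2% and 24.5%. High on all 3 arrays were 55 of the 513 probes (10.7%), against 4.44% beside the other runs and 4.79% over all. Of the 513 probes, 32 lay in another chosen run. Without these the median percentiles were 78.2 for 5hmC, 65.2 for 5mC and 62.0 on the IVT array.

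The level outside a run was compared with that of runs high on only a pair of arrays. Beside the 436 runs that were high on both 5hmC arrays but not for 5mC, the nearest outside probe had a median 5mC percentile of 70.1, so the 66.5 beside the chosen runs was no higher although their own 5mC was. Beside the 777 runs high for 5mC and 5hmC but not on the IVT array it had an IVT percentile of 61.1, against 63.7 beside the chosen runs. Beside the 341 runs high on 5mC MBD and IVT but not on the 5hmC ESC array it had a 5hmC percentile of 67.4, against 79.4 beside the chosen runs. Of the 3 arrays, the 5hmC ESC array thus showed the widest gap between probes outside the chosen runs and outside runs that missed on that array alone. Among the sets compared here that passed on the 5hmC ESC array the 5hmC level outside was about the same. Its median percentile was 80.5 beside the 436 runs and 77.7 beside the 777 runs, against 79.4 beside the chosen runs. The interquartile ranges of all these sets overlapped, and the differences could not be tested with 1 array of each kind.

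The higher values outside the chosen runs were most marked within 10 probe numbers of the run. For 5hmC the share of probes above percentile 80 was 49.5% at a distance of 2, 44.9% at 3 to 5 and 43.5% at 6 to 10, and 21.3% at 11 to 20. Around the other runs the shares at the same distances were 22.9%, 22.98%, 19.6% and 14.7%. For 5mC it was 31.4%, 31.1% and 28.0% out to 10 numbers and 18.9% at 11 to 20, around the chosen runs, against 21.8%, 20.9%, 18.9% and 15.5% around the others. The IVT shares were 33.4%, 30.6%, 27.1% and 22.0% around the chosen runs, against 19.6%, 21.5%, 21.9% and 18.2% around the others. Farther out the 5hmC share was still 26.5% at 21 to 50 numbers around the chosen runs, over 499 probes, against 13.2% around the others. At 101 to 500 numbers the shares around the chosen runs were 21.4% for 5mC, 22.9% for 5hmC and 22.9% on the IVT array, against 19.8%, 19.6% and 19.9% around the others. These shares include probes that lie in other chosen runs. Without all probes of chosen runs, a choice made after seeing the data, the 5hmC shares around the chosen runs were 47.3% at a distance of 2, 40.9% at 3 to 5, 42.1% at 6 to 10 and 21.3% at 11 to 20, against 21.7%, 21.03%, 18.1% and 13.8% around the others. For 5mC they were 29.3%, 28.9%, 27.0% and 18.9%, against 20.96%, 19.4%, 17.9% and 15.0%. The IVT shares were 32.6%, 27.6%, 24.8% and 22.0%, against 18.995%, 20.2%, 20.8% and 17.7%. The distance in bases that a step in probe number stands for was not used here.

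**Figure D4:**
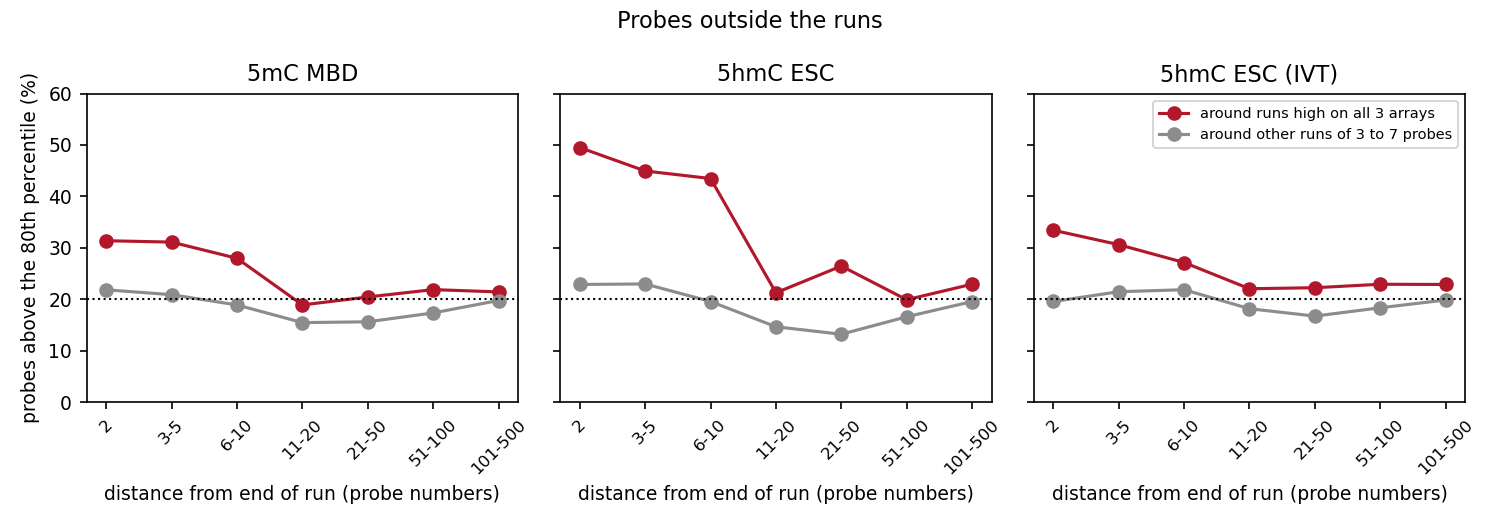
Percent of probes above percentile 80 of their array (y axis) by distance from the end of a run in probe numbers (x axis, bins), around the 614 runs high on all 3 arrays (red) and around the other runs of 3 to 7 probes (grey), with 20% dotted. The red line for 5hmC lies between 43.5% and 49.5% out to 10 numbers and at 21.3% from 11 to 20; probes in other chosen runs are included.

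Chosen runs lay next to each other more often than their share of all runs. Of the runs of 3 to 7 probes directly before or after a chosen run, 110 of 1228 (8.96%, 7.42 to 10.7) were chosen too, against 4.80% of all runs. Where the gap was at most 50 numbers the share was 38 of 312 (12.2%, 8.76 to 16.3). A step further along, at the run after next, it was 54 of 1228 (4.40%, 3.32 to 5.70), near the share of all runs. Each pair of neighbouring runs counts from both sides here, which makes these intervals too narrow. Within gaps of at most 50 numbers the 614 runs formed 19 pairs and 576 single runs, and no series was longer than a pair.

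Along the probe numbers the chosen runs were spread over the whole range, with fewer at the end. When all runs of 3 to 7 probes were cut into 20 blocks in the order of their numbers, the first 19 blocks held between 24 and 43 chosen runs each, or 3.75% to 6.72% of their runs. The last block held 12 of 639 (1.88%, 0.974 to 3.26). In that block 9.39% of runs were above percentile 80 on the IVT array, against 17.7% to 25.2% in the earlier blocks. For 5mC the share was 16.7%, against 17.5% to 24.4%, and for 5hmC it was 18.8%, against 16.4% to 23.9%. The median run of the last block had -0.76 on the IVT array, against -0.52 to -0.35 in the earlier blocks. Of the runs high for both 5mC and 5hmC in the last block, 25.5% were chosen, against 36.4% to 51.5% in the earlier blocks. The 12 chosen runs of the last block had IVT medians from 0.23 to 1.29. With the last block left out and percentiles taken again, a choice made after seeing the data, 584 runs were chosen, all of them among the 614.

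**Figure D5:**
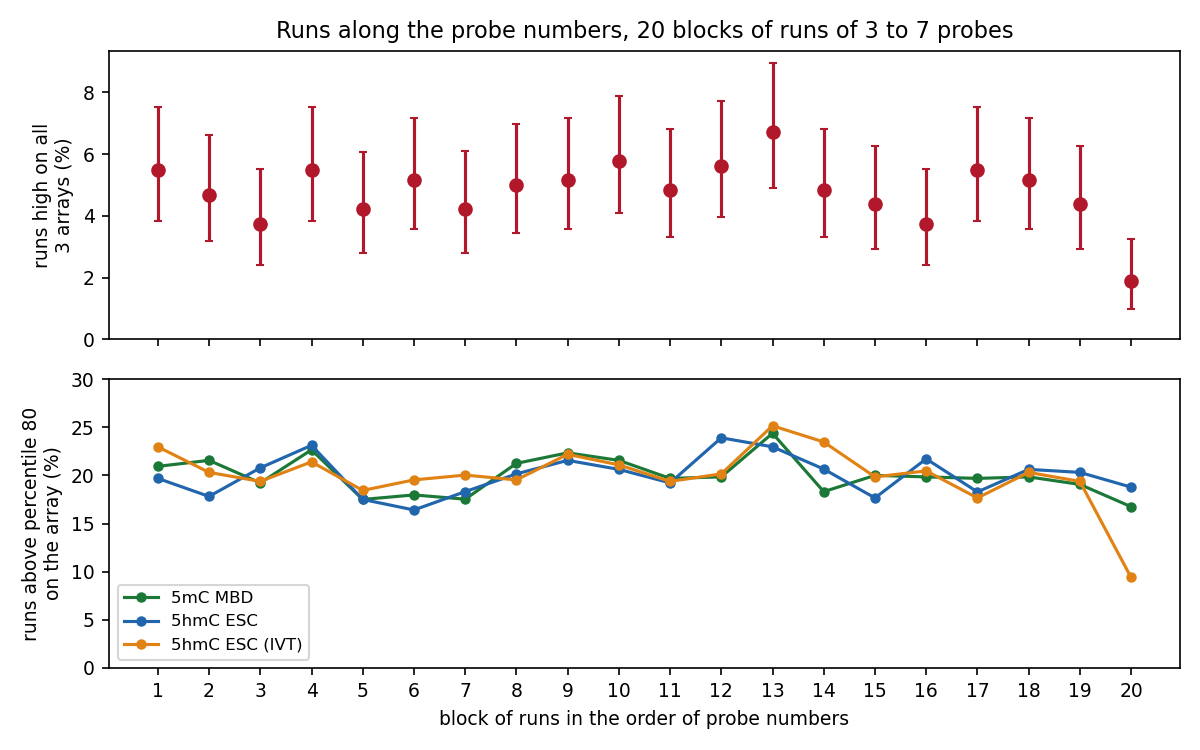
Top, percent of runs high on all 3 arrays (y axis, bars are 95% exact binomial intervals) in 20 blocks of runs in the order of their probe numbers (x axis). Bottom, percent of runs above percentile 80 on each array in the same blocks; in the last block the IVT array stands at 9.39% and the top panel at 1.88%.

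Which runs were chosen depended on how a run was summarised more than their number did. With the mean of the probes in place of the median 732 runs passed, of which 474 were among the 614 (77.2% of the chosen runs and 64.8% of those that passed). With the lowest probe of each run 603 runs passed, of which 217 were among the 614 (35.3% of the chosen runs and 36.0% of those that passed). With percentiles taken among all runs of at least 3 probes 595 of the runs of 3 to 7 probes passed, and 591 of these were among the 614.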

How the data were processed

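Per the labels, precipitated and genomic DNA from wild-type ES cells of the mouse were hybridised to 3 Agilent 2-colour arrays. The authors deposited 1 table with a signed score for each of 88736 probes per array, taken here as a log ratio of unknown base; no label or header names the software, normalization or genome build behind these scores. Of these probes 2 lacked a value on 1 array and were left out. The remaining probes formed 26979 runs of consecutive numbers, of which 12797 held 3 to 7 probes. Percentiles are ranks among these runs, or among all probes for single probes. Python 3.11.15, pandas 2.3.3, numpy 2.4.6 and scipy 1.17.1 were used. The code was checked on simulated arrays in which strongly raised runs had been planted. That check does not measure how often a run is chosen in error in these data. Intervals are exact binomial (Clopper-Pearson, 95%). The members and measures were chosen with earlier results of these data known. The runs named are the 2 with the highest lowest percentile, since no table paired probes with genes; gene lists drawn up for that case were not used. Alternatives were other thresholds, run summaries, run lengths, distances and each array left out of the rule.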

Additional observations from a re-analysis of the deposited data

How the results depend on the processing

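Of 75 values under alternative settings, 38 stayed within the interval of the reported value or, for numbers of runs, within 1.5 times it, and 37 did not. The number of chosen runs was 986, 350 and 169 with thresholds at percentiles 75, 85 and 90, and 1050, 955 and 1391 without the 5mC MBD, 5hmC ESC or IVT array in the rule, since a rule with fewer conditions keeps more runs. The share of runs high on a pair of arrays that were high on the remaining one was, at percentile 75, at percentile 90 and with means over probes, 65.2%, 47.6% and 65.2% for 5mC, 70.2%, 56.1% and 69.1% for 5hmC, and 51.3%, 33.0% and 49.0% on the IVT array, so the IVT array stayed lowest and the 5hmC ESC array highest in each. The share of chosen probes above percentiles 50 and 90 was 86.5% and 35.9% for 5mC, 95.7% and 44.6% for 5hmC, and 85.3% and 31.7% on the IVT array. Within runs the median range, a wider measure than the SD by construction, was 1.98 for 5mC, 1.44 for 5hmC and 2.19 on the IVT array, and the 5hmC SD was 0.67 in runs of 5 to 7 probes. The nearest outside probe within 50 numbers had a median 5hmC percentile of 76.7, and as shares above percentile 80 these probes gave 30.8%, 49.3% and 31.8% for 5mC, 5hmC and the IVT array. Without probes of chosen runs the shares by distance that moved were those for 5hmC at 3 to 5, 51 to 100 and 101 to 500 numbers, at 40.9%, 15.9% and 20.8%, and at 101 to 500 numbers for 5mC and IVT, at 19.9% and 21.7%. Next runs were chosen in 12.2% within 50 numbers and 4.40% at the run after next, and of runs of 7 probes 6.15% were chosen. The shares of chosen probes above percentiles 50 and 90 moved by construction, since the cut differs. A share above percentile 80 is also a different measure from the median percentile it was set against. The count of 37 includes these, so it does not measure how robust the results are. For the remaining shifts the cause was not tested. Gene lists were not run because no table paired probes with genes. The files give no signal over background. No paired analysis was possible because there was a single array of each kind, and no replicate could be left out.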

Other observations

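Runs shorter or longer than 3 to 7 probes were set against the same 3 threshold values. Of 417 runs of 11 to 23 probes 31 (7.43%, 95% exact binomial interval 5.11 to 10.4) passed all of them, and of 1189 runs of 8 to 10 probes 63 (5.30%, 4.10 to 6.73), against 4.80% of runs of 3 to 7 probes. Of the runs of 11 to 23 probes 30.2% passed the 5hmC threshold, 19.9% the 5mC threshold and 17.0% that of the IVT array. Of 7207 isolated probes 395 (5.48%) passed all 3 thresholds, and of 5369 runs of 2 probes 301 (5.61%). A median over fewer probes varies more, so these shares do not compare like with like.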
